A study of Homo sapiens with 2 samples.

Results

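The genes described here are the nuclear genes of the mitochondrial respiratory chain and ATP synthase, chosen by gene symbol: the NDUFA, NDUFB, NDUFC, NDUFS and NDUFV names of complex I, SDHA to SDHD of complex II, the UQCR names, CYC1 and CYCS of complex III and cytochrome c, COX4 to COX8 of complex IV, and the ATP5 names of the ATP synthase, complex V. The rule matched 100 genes of the deposited comparison table, and 97 were kept after 3 pseudogenes were left out, of 17392 genes in that table and 25702 in the count files. They comprise 82 subunit genes (cytochrome c included), 8 complex I assembly factors, 4 paralogs of subunits, 1 inhibitor of the ATP synthase and 2 non-coding RNAs. The cells were K562, a human erythroleukemia line that carries the BCR-ABL1 fusion, growing asynchronously in RPMI with serum. One culture was kept for 48 h in DMSO, the solvent, and the other for 48 h in cabozantinib (XL184) at 1 µM, a kinase inhibitor whose targets include MET, AXL and the VEGF receptors. Gene expression was measured by RNA sequencing to ask how the inhibitor changes the transcriptome of this line. Each group held 1 library of the same single cell line, so the differences given here have no replicate check, and none was tested.

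The respiratory chain moves electrons from NADH (complex I) or succinate (complex II) through coenzyme Q, complex III and cytochrome c to oxygen at complex IV, and the proton gradient built on the way drives the ATP synthase. Complexes I, III, IV and V are each built from subunits of nuclear and of mitochondrial DNA, while complex II is wholly nuclear. Erythroid precursors depend on working mitochondria for heme synthesis and lose these organelles when they mature into red cells.

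The libraries held 25025243 counts (DMSO) and 25505289 counts (cabozantinib). All 12 erythroid and BCR-ABL1 markers looked at were measured in both libraries, and their summed level was 13879 CPM (counts per 1000000 counts of the scaled library) in DMSO and 38047 CPM with cabozantinib. Of 15 markers of T cells, B cells, epithelium, fibroblasts and endothelium, 5 reached 1 CPM, the highest being EPCAM, and 4 had 0 counts in both libraries. Their summed level was 87.0 CPM in DMSO and 93.4 CPM with cabozantinib, most of it from EPCAM (70.4 and 86.1 CPM). In bulk RNA, fewer expressing cells and less RNA per cell cannot be told apart.

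Most respiratory chain genes stayed near their DMSO level with cabozantinib. Of the 97 genes, 94 were measured, meaning at least 1 CPM in at least 1 library. Their median log2 ratio, cabozantinib over DMSO, was 0.05, beside 0.01 for all 12536 measured genes, and their middle 50% lay between -0.07 and 0.16, beside -0.29 and 0.27. For the 4787 genes that averaged 50 CPM or more, the median was 0.06 and the middle 50% lay between -0.15 and 0.27. Together the 97 genes took 1.593% of all counts in the DMSO library (exact 95% binomial interval 1.588% to 1.598%) and 1.498% in the cabozantinib library (1.494% to 1.503%). On the library sizes used here, their summed level was 15472 CPM in DMSO and 15428 CPM with cabozantinib. A gene was called when it differed by 1.5-fold or more and the exact 95% interval of the ratio of its 2 counts left out no change. By this rule 1 member was higher, COX7B2, and 1 was lower, NDUFA4L2. COX7B2 reached 1 CPM in the cabozantinib library only, so it entered the comparison through the library where it was higher. Of all measured genes 8.15% were higher and 12.3% lower by the same rule, and of the 4787 genes that averaged 50 CPM or more 5.85% and 5.62%. A log2 ratio within 0.32 of 0 in either direction held for 83 of the 94 (88.3%), for 56.3% of all measured genes and for 67.1% of those more abundant genes. Past 0.32, with the same interval condition, 4 members were higher and 6 lower, beside 19.2% and 20.5% of all measured genes and 19.8% and 13.1% of the more abundant ones. The 4 higher were COX7B2, COX7B, ATP5IF1 and NDUFAF6, and the 6 lower included NDUFA4L2, NDUFAF2, NDUFC2, NDUFS7 and SDHB. Scaling by total counts moved every ratio down by 0.08 on the log2 scale and changed this split to 2 higher and 10 lower. The members above and below 0 were 58 and 36, and 36 and 58 under that scaling. Directions of medians smaller than 0.08 in size thus depend on the scaling. All measured genes moved alike, and under that scaling their median was -0.07, beside -0.03 for the members.

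**Figure D1:**
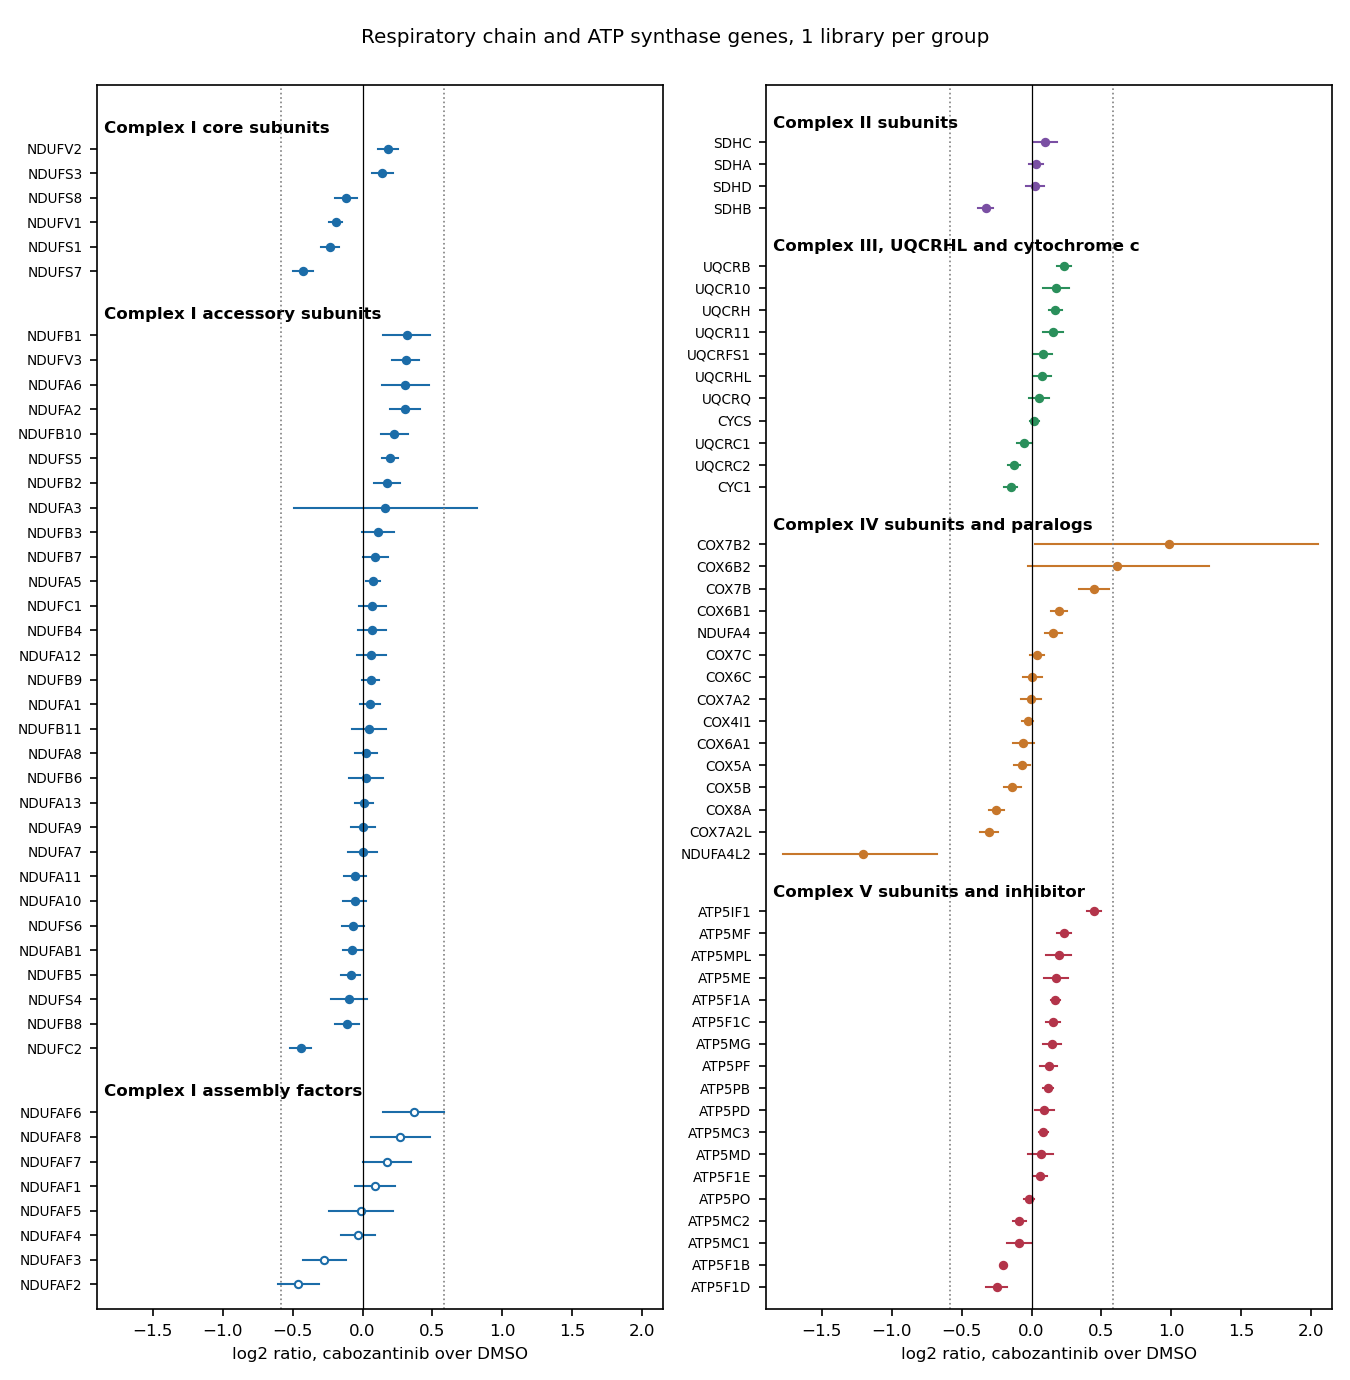
Log2 ratio of cabozantinib over DMSO (x axis) for the measured genes, grouped by complex (1 gene and the non-coding RNA are not drawn), with exact 95% counting intervals as bars, open circles for assembly factors and dotted lines at 1.5-fold. Most points lie within 0.2 of 0, with NDUFS7 (-0.42) and NDUFC2 (-0.44) low in complex I and COX7B (0.45) and ATP5IF1 (0.45) high in complexes IV and V.

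Respiratory chain genes are known targets of the transcription factors NRF1, YY1 and the ETS-family factor GABP, so exact matches to their core motifs were looked for on both strands in windows from 250 bases before to 50 bases after the gene start. RefSeq windows on GRCh38.p14 were found for 81 of the 97 genes by gene ID, the first listed window being used. The NRF1 core motif stood in 18 of 81 (22.2%), against 6.28% of 27305 windows of all genes and 12.7% of the 9336 windows of measured protein-coding genes. The ETS letters CCGGAAG stood in 21 (25.9%), against 10.7% and 20.9%, and the YY1 core motif in 8 (9.88%), against 1.28% and 3.14%. The motifs were searched separately on each strand, and a palindromic match, such as the upstream one in NDUFB4, was found on both strands at the same bases. Of the 81 windows 40 held at least 1 motif and 7 held more than 1 kind. The median log2 ratio was 0.06 over 17 measured genes with the NRF1 motif and 0.05 over 62 without, 0.05 over 21 with the ETS letters and 0.04 over 58 without, and -0.05 over 7 with the YY1 motif and 0.06 over 72 without. The stretches below end at the base before the gene start, run 5′ to 3′ on the gene's strand and have motif letters in capitals. SDHA is shown for its 4 copies of the NRF1 motif, and NDUFB4 for NRF1 motifs at separate places. UQCR11 and ATP5PF are shown for motifs of 2 kinds. COX7B, ATP5IF1 and NDUFA4L2 are shown as genes whose log2 ratio passed 0.32 in size. The 250 bases before the gene starts of COX7B, ATP5IF1 and NDUFA4L2 held none of the motifs.
SDHA (chr5:218070-218319, plus strand): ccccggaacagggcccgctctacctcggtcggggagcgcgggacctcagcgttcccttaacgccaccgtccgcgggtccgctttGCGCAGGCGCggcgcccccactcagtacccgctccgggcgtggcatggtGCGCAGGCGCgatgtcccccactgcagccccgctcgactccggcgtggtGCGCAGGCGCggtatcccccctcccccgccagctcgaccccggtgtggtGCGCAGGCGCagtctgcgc
UQCR11 (chr19:1605463-1605592, minus strand): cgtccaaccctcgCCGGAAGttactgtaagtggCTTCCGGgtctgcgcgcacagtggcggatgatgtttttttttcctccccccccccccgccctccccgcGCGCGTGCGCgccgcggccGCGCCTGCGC
NDUFB4 (chr3:120596166-120596335, plus strand): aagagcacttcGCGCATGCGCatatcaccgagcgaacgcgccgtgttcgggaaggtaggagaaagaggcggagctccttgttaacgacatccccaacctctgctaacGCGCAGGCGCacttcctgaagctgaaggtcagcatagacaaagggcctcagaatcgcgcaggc
ATP5PF (chr21:25735055-25735134, minus strand): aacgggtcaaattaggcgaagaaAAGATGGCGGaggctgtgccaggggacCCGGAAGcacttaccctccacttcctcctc
COX7B (chrX:77899388-77899467, plus strand): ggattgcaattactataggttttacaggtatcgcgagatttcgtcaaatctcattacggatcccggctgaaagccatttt
ATP5IF1 (chr1:28236044-28236123, plus strand): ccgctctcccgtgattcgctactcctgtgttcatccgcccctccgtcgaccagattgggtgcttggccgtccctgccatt
NDUFA4L2 (chr12:57240763-57240842, minus strand): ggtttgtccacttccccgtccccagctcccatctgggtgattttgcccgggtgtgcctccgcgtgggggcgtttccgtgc

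Complex I, the NADH dehydrogenase, has 37 nuclear subunit genes here, and all were measured. Their median log2 ratio was 0.04, the highest was NDUFB1 (0.32), and none passed 1.5-fold in either direction. The core subunits carry the flavin and the iron-sulfur clusters, and the accessory subunits surround them. Of 7 nuclear core subunits 5 were lower and 2 higher with counting intervals that left out no change, with a median of -0.19. Of 30 accessory subunits 9 were higher and 4 lower by that criterion and had a median of 0.05. Without a size limit 34.8% of all measured genes were higher and 32.1% lower, and of those at 50 CPM or more 47.9% and 31.9%. Under scaling by total counts the accessory subunits gave 6 higher and 9 lower (median -0.03) and the core subunits 1 higher and 5 lower (median -0.28). All measured genes then gave 26.8% higher and 40.3% lower, with a median of -0.07. As summed counts, the core subunits gave a log2 ratio of -0.20 (-0.22 to -0.17) and the accessory subunits 0.03 (0.02 to 0.05).

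NDUFS7 (gene 374291, hg19 chr19:1383883-1395588), which holds the last iron-sulfur cluster before coenzyme Q, counted 3809 in the DMSO library and 2729 in the other, or 148 and 110 CPM. It was 1.34-fold lower (log2 ratio -0.42, -0.50 to -0.35). NDUFS1, the largest core subunit, had 171 and 146 CPM (-0.23), NDUFV1, which binds NADH and the flavin, 350 and 306 CPM (-0.19), and NDUFS8, another iron-sulfur subunit, 110 and 101 CPM (-0.12). On the opposite side were NDUFS3 at 112 and 124 CPM (0.14, 0.07 to 0.22) and NDUFV2 at 112 and 127 CPM (0.18, 0.11 to 0.26). Ratios between subunits of one library do not depend on the scaling. Each restates the log2 ratios of its genes, so here and below such ratios are no separate evidence. NDUFV2 per unit of length was 0.561 times NDUFV1, its partner at the NADH site, in DMSO and 0.728 times with cabozantinib, a log2 change of 0.38 (Wald interval of the 4 counts 0.29 to 0.46).

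Among accessory subunits, NDUFC2, in the membrane arm, stood alone on the low side with 132 and 97.4 CPM (-0.44, -0.52 to -0.37). The next lowest, NDUFB8, had a log2 ratio of -0.11. The highest were NDUFB1 at 20.5 and 25.6 CPM (0.32, 0.15 to 0.49), NDUFV3 at 60.0 and 74.2 CPM (0.31), NDUFA6 at 20.7 and 25.6 CPM (0.30) and NDUFA2 at 51.2 and 63.2 CPM (0.30). None of these 4 passed the size limit. By name series, the NDUFA subunits had a median of 0.03 over 13 genes, the NDUFB subunits 0.07 over 11 and the NDUFS subunits -0.11 over 8. NDUFA3 had 40 and 43 counts, the lowest of complex I. Per kilobase of exon (RPKM, the CPM divided by exon length) it stood at 4.39 and 4.90 and lay far below the complex I medians of 98.5 and 110 on that scale.

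Complex II, the succinate dehydrogenase that also works in the TCA cycle, showed 1 subunit apart from the other 3. SDHB (gene 6390, hg19 chr1:17345217-17380665), its iron-sulfur subunit, counted 5808 in the DMSO library and 4443 in the cabozantinib library, or 225 and 179 CPM, 1.26-fold lower (-0.33, -0.39 to -0.27). SDHA, the flavin subunit that binds succinate, had 261 and 266 CPM (0.03), and the membrane anchors SDHC and SDHD had 93.3 and 99.8 CPM (0.10) and 143 and 146 CPM (0.03). The ratio of SDHA to SDHB per unit of length was 0.558 in DMSO and 0.716 with cabozantinib, a log2 change of 0.36 (0.29 to 0.44). Iron-sulfur clusters are held by 7 nuclear subunits: NDUFS1, NDUFS7, NDUFS8, NDUFV1, NDUFV2, SDHB and the Rieske protein UQCRFS1. This group was put together after these values were seen. Its complex I genes are core subunits already counted above, so it is no separate result. Its median log2 ratio was -0.19, with 5 lower and 2 higher by intervals that left out no change. Of all measured genes 32.1% were lower and 34.8% higher, and of those at 50 CPM or more 31.9% and 47.9%. Under scaling by total counts 5 of the 7 were lower and 1 higher, beside 40.3% and 26.8% of all measured genes.

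Complex III and cytochrome c, 10 genes, had a median log2 ratio of 0.07 and a range from -0.15 (CYC1) to 0.23 (UQCRB). Cytochrome c itself, CYCS, which carries electrons to complex IV and also takes part in apoptosis, had 575 and 582 CPM (0.02, -0.01 to 0.05). Among the catalytic subunits, CYC1 (cytochrome c1) had 279 and 252 CPM (-0.15), and UQCRFS1 128 and 135 CPM (0.08). The large core proteins UQCRC1 and UQCRC2 had 232 and 224 CPM (-0.05) and 346 and 317 CPM (-0.13). Per unit of length UQCRC1 was 0.696 times UQCRC2 in DMSO and 0.733 times with cabozantinib, a log2 change of 0.07 (0.01 to 0.14). The small subunits UQCRB, UQCR10, UQCRH and UQCR11 were between 0.15 and 0.23, all with intervals above 0, and UQCRQ was at 0.05 (-0.02 to 0.12). By their intervals 5 of the 10 genes were higher and 2 lower. Of all measured genes 34.8% were higher and 32.1% lower, and of those at 50 CPM or more 47.9% and 31.9%. Under scaling by total counts 2 were higher and 4 lower, beside 26.8% and 40.3%. UQCRHL is an intronless copy of UQCRH, and how reads common to both were counted is not stated, so each value is uncertain. Their summed counts gave 0.14 (0.10 to 0.18).

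Complex IV, cytochrome c oxidase, had a median log2 ratio near 0 over its 11 main nuclear subunits (-0.00). By intervals that left out no change 3 were higher and 3 lower. Of all measured genes 34.8% were higher and 32.1% lower, and of those at 50 CPM or more 47.9% and 31.9%. Under scaling by total counts 3 were higher and 7 lower, beside 26.8% and 40.3%. COX7B (gene 1349, hg19 chrX:77154961-77160881), a small subunit needed for assembly, counted 1266 in DMSO and 1661 in the treated library, or 49.1 and 67.1 CPM, 1.36-fold higher (0.45, 0.34 to 0.56). COX8A was the lowest, with 257 and 216 CPM (-0.25, -0.30 to -0.20). Relative to COX8A in the same library, COX7B per unit of length went from 0.212 to 0.345. COX7B and COX8A were the highest and lowest of the 11, so their ratio is no separate evidence. COX4I1, a large regulatory subunit, had 384 and 377 CPM (-0.03), COX5A 198 and 188 CPM (-0.07) and COX5B 166 and 151 CPM (-0.14).

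Several complex IV subunits exist as a ubiquitous form and a form of muscle, lung or testis, and K562 carried the ubiquitous forms. COX4I2, COX6A2 and COX7A1 stood at 0 in either library, where a level of 3 counts or 0.121 CPM could have been missed. Their ubiquitous partners COX4I1, COX6A1 and COX7A2 stood at 384, 116 and 125.2 CPM in DMSO. The testis forms COX6B2 and COX7B2 were barely measured, and COX8C had 0 and 1 counts. COX7B2 (gene 170712, hg19 chr4:46736844-46847031) counted 14 in DMSO and 27 in the treated library, 1.97-fold higher (log2 ratio 0.98, 0.02 to 2.05). The call rested on these few counts and was lost under scaling by total counts. COX6B2 had 36 and 53 counts (0.61, -0.02 to 1.27), while its partner COX6B1 had 183 and 209 CPM (0.19). NDUFA4, now counted as a complex IV subunit, had 169 and 188 CPM (0.16, 0.10 to 0.22).

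NDUFA4L2 (gene 56901, hg19 chr12:57628686-57634545), a paralog of NDUFA4 known as a target of hypoxia-inducible factor, counted 99 in DMSO and 41 in the treated library, or 3.84 and 1.66 CPM. It was 2.30-fold lower (log2 ratio -1.20, -1.78 to -0.68), the largest difference in size among the 94 measured members. In the authors' deposited table its shrunken fold was 2.32-fold lower with a posterior probability of differential expression of 0.884. No member reached 0.95 in the authors' deposited table, where 4.66% of genes did. After NDUFA4L2 the highest probability was 0.079 (COX7B2). COX7B had 0.028, NDUFS7 0.020, ATP5IF1 0.016 and SDHB 0.008. One end of NDUFA4L2 overlaps SHMT2, a mitochondrial serine enzyme on the opposite strand, by 33 exon bases in the deposited hg19 annotation. SHMT2 had 13173 and 6841 counts, a log2 ratio of -0.89 (-0.93 to -0.85), and the part of its reads in the NDUFA4L2 counts was not tested. The library kit kept strand, per the labels, but whether the counting used it is not stated. COX7A2L, a paralog of COX7A2 that joins complexes III and IV into supercomplexes, had 171 and 138 CPM, 1.23-fold lower (-0.30, -0.37 to -0.24). COX7A2 itself had a log2 ratio of -0.00.

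Complex V, the ATP synthase, had 17 subunit genes with a median log2 ratio of 0.09, a range from -0.25 (ATP5F1D) to 0.23 (ATP5MF) and no member past 0.32 in size. The catalytic head F1 is built from alpha and beta subunits in equal number. ATP5F1B, the beta subunit, was the most abundant member, with 47700 and 39872 counts or 1851 and 1610 CPM (-0.20, -0.22 to -0.18). ATP5F1A, the alpha subunit, had 535 and 602 CPM (0.17, 0.14 to 0.20). Per unit of length, alpha was 0.268 times beta in DMSO and 0.347 times with cabozantinib, a log2 change of 0.37 (0.33 to 0.41). That ratio restates the values of ATP5F1A and ATP5F1B and is no separate evidence. The gamma subunit ATP5F1C had a log2 ratio of 0.15, the delta subunit ATP5F1D -0.25 and the epsilon subunit ATP5F1E 0.06. The 9 membrane and stalk subunits, without the 3 subunit c genes, had a median of 0.12. Beside 47.9% and 31.9% of the genes at 50 CPM or more, 7 of these 9 were higher and 0 lower by their intervals. Scaling by total counts left 3 higher and 1 lower, beside 26.8% and 40.3% of all measured genes. ATP5PO, the stalk protein OSCP, was lowest at -0.02. In that group the exons of ATP5PB overlap WDR77 on the opposite strand, which had a log2 ratio of 0.78.

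The c ring of the ATP synthase is made of 1 protein that 3 genes encode with different import sequences. Of the subunit c counts ATP5MC3 gave 58.8% in the DMSO library (58.1% to 59.4%) and 61.6% in the treated library (61.0% to 62.2%). ATP5MC2 gave 31.1% and 29.0%, and ATP5MC1 10.1% and 9.43%. ATP5MC3 was thus the main source of subunit c counts in both libraries, although per unit of length ATP5MC2 was higher (an RPKM of 221 against 154 in DMSO). Summed over the 3 genes, the log2 ratio was 0.02 (-0.01 to 0.04). By intervals that left out no change ATP5MC3 was higher (0.08), and ATP5MC2 (-0.09) and ATP5MC1 (-0.09) were lower. Of the genes at 50 CPM or more 47.9% were higher and 31.9% lower.

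ATP5IF1 encodes the small inhibitor that stops the ATP synthase from running backwards and has been tied to heme synthesis in erythroblasts. The gene (93974, hg19 chr1:28562611-28564611) counted 5548 in DMSO and 7279 in the treated library, or 215 and 294 CPM, 1.36-fold higher (0.45, 0.40 to 0.50). Its interval lay above those of all 17 complex V subunit genes. Relative to the beta subunit it binds, ATP5IF1 per unit of length went from 0.112 to 0.176, a log2 change of 0.65 (0.60 to 0.70). ATP5MGL, a paralog of a membrane subunit, had 2 and 1 counts and was not measured. Of the non-coding RNAs matched by name, NDUFA6-DT had 11 and 9 counts, and NDUFB2-AS1, whose exons overlap NDUFB2 on the opposite strand, had 28 and 26 (-0.05).

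**Figure D2:**
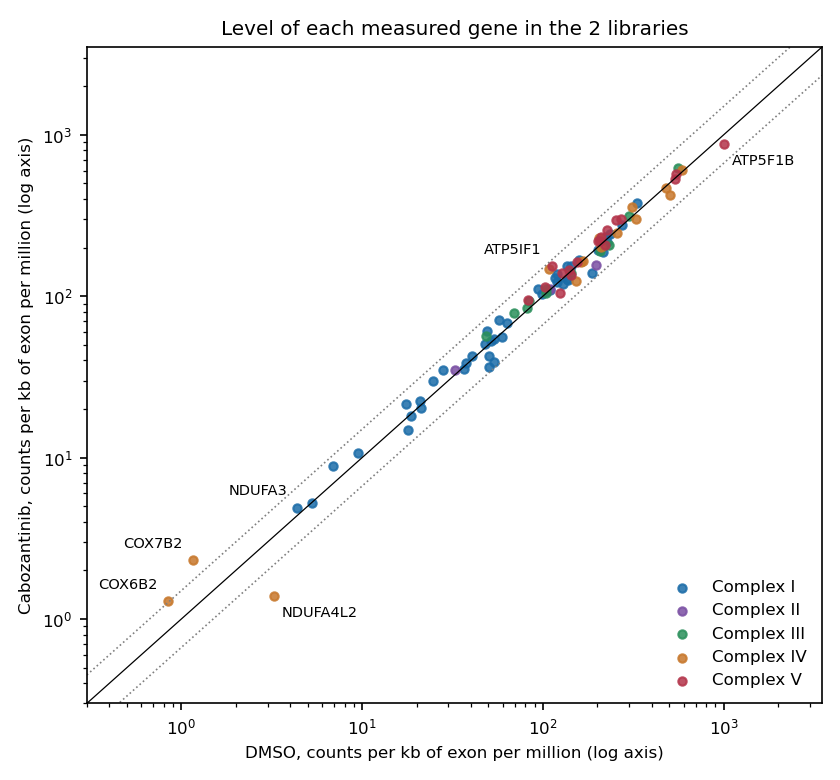
Level of each measured gene in DMSO (x axis) and with cabozantinib (y axis) in RPKM, both on log axes, coloured by complex (1 gene and the non-coding RNA are not drawn), with the solid line at equality and dotted lines at 1.5-fold. The points follow the line from COX6B2 to ATP5F1B, with NDUFA4L2 below the lower dotted line, COX7B2 above the upper one and COX6B2 just above it.

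Assembly factors of complex I, which help build it and are not part of the finished enzyme, were set against the subunits. The 8 NDUFAF genes had a median log2 ratio of 0.04 and the 81 measured subunits one of 0.05. Of the 8, 3 were higher and 2 lower by intervals that left out no change, beside 34.8% and 32.1% of all measured genes. Under scaling by total counts 1 was higher and 2 lower, beside 26.8% and 40.3%. NDUFAF2, a chaperone of late complex I assembly, had 927 and 648 counts or 35.98 and 26.2 CPM, 1.37-fold lower (-0.46, -0.61 to -0.31). NDUFAF6 had 12.4 and 15.9 CPM, 1.29-fold higher (0.36, 0.15 to 0.58). Between them lay NDUFAF3 (-0.27), NDUFAF4 (-0.03), NDUFAF5 (-0.01), NDUFAF1 (0.09), NDUFAF7 (0.17) and NDUFAF8 (0.27). The subunits were more abundant per length, with a median RPKM of 136 in DMSO against 18.3 for the assembly factors, and 137 against 16.5 with cabozantinib.

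Of 48 assembly factors whose names the rule does not match, 3 were higher and 2 lower by 1.5-fold, with a median of 0.06. All measured genes gave 8.15% and 12.3% by that rule, so these counts were no larger than the background. The complex IV list, with 23 genes, held the 3 higher ones and 1 of the lower ones. SCO2, a copper chaperone, had 6.75 and 10.7 CPM (0.67, 0.39 to 0.95), PET100 5.90 and 9.24 CPM (0.65, 0.35 to 0.95), and COA7 47.0 and 72.4 CPM (0.62, 0.52 to 0.73). COX19, a protein of copper delivery, had 37.8 and 24.2 CPM (-0.64, -0.79 to -0.49). SDHAF4, of complex II, had 6.29 and 4.12 CPM (-0.61, -0.98 to -0.24). The median of the complex IV list was -0.01, and by 1.5-fold 0 of 11 other complex I, 0 of 6 complex III and 0 of 4 complex V factors were called.

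Within each library the order of the subunits by level per length was nearly the same, with a rank correlation of 0.99 over 81 genes that share library, depth and gene length. ATP5F1B led in both libraries (RPKM of 1004 and 873), followed by COX7C, UQCRH, ATP5F1E and ATP5PO. COX7C (588) was ahead of UQCRH (557) in DMSO and behind it (604 and 627) with cabozantinib. The subunit mRNAs are short, with a median exon length of 921 bases, against 2994 for measured protein-coding genes. Across the 81 subunits the log2 ratio had a rank correlation of -0.36 with the DMSO level in CPM and -0.15 with exon length, while over all 12536 measured genes these were 0.05 and 0.05. Genes are not independent replicates, and these values describe this pair of libraries only; the DMSO level also enters the ratio.

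**Figure D3:**
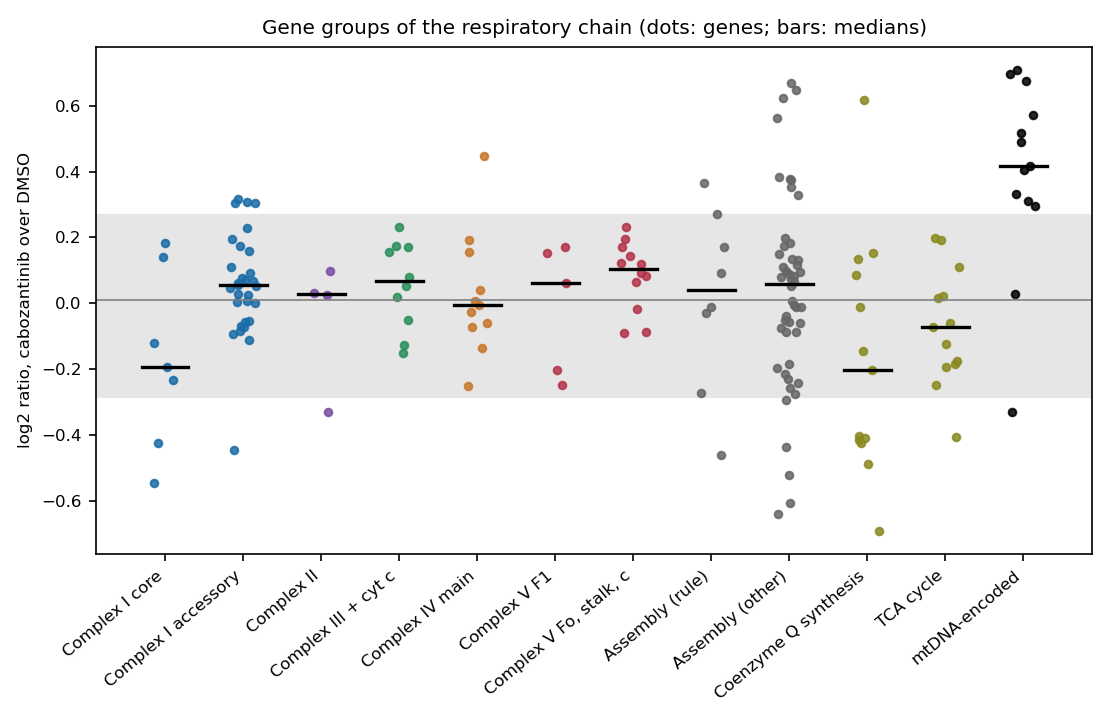
Log2 ratio of cabozantinib over DMSO (y axis) of each measured gene (dots) in groups of respiratory chain and related genes, with group medians as bars, the grey band at the middle 50% of all measured genes and the grey line at their median. The core subunits of complex I (median -0.19) and coenzyme Q synthesis (-0.20) lie lowest and the subunits encoded by mitochondrial DNA (0.42) highest.

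The subunits encoded by mitochondrial DNA were higher relative to their nuclear partners with cabozantinib. Of 13 mitochondrial genes 12 were higher by intervals that left out no change and ND6 was lower (-0.33). Of all measured genes 34.8% were higher and 32.1% lower, and of those at 50 CPM or more 47.9% and 31.9%. Over the 13 the median log2 ratio was 0.42, which is 0.36 above that of the nuclear subunits (0.29 with a trend on gene length removed). Nuclear genes gave 23.2% of all complex I counts in the DMSO library (23.0% to 23.3%) and 19.5% in the treated library (19.4% to 19.6%). For complex III with cytochrome c the nuclear share was 66.9% and 59.1%, for complex IV 10.8% and 8.19%, and for complex V 69.9% and 62.1%.

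**Figure D4:**
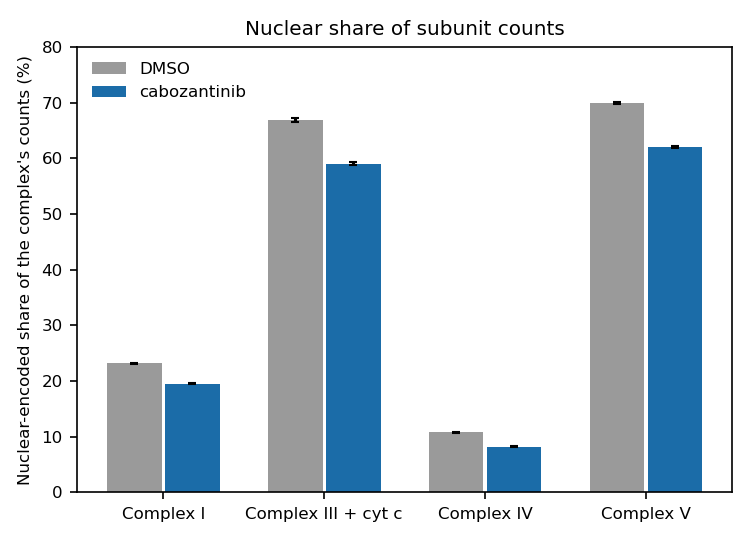
Share of each complex's subunit counts that came from nuclear genes (y axis, percent) in the DMSO and cabozantinib libraries, with exact 95% binomial intervals as error bars. The cabozantinib bar is lower in each complex, from 23.2% to 19.5% in complex I and from 69.9% to 62.1% in complex V.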

How the data were processed

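RNA of 1 DMSO and 1 cabozantinib culture of K562 was analysed from the files the authors deposited. The deposited counts are whole reads per Entrez gene. Per the file headers, alignment was by Rsubread against hg19, which the submitters' processing notes also name, beside GRCh37. The kit was strand-specific per the labels; the strand setting of counting is not stated. The authors' deposited table adds a symbol per gene, posterior probabilities of equal and differential expression (a score from 0 to 1) and fold ratios, whose direction was read from the labelled counts. A further 4 columns in it, unlabelled by sample, were not used.

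Libraries were scaled with TMM in edgeR 4.0.16 (R 4.3.3; factors 1.03 and 0.971). Log2 ratios used a pseudocount of 0.5, and levels are CPM or RPKM on the same sizes. Intervals are exact (Clopper-Pearson) 95% intervals of the ratio of 2 counts, and, for ratios of 2 genes, Wald intervals; all cover counting error alone. With 1 library per group no p-value was computed. The intervals and calls were tested on simulated counts that held counting error alone, so variation between cultures was not covered.

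The members, lists and rules were chosen with earlier results of these data known. Named members were all those called, the highest and lowest of each complex, core subunits, SDH genes, cytochromes, isoforms and paralogs, assembly factors and genes that are no subunit; of other lists, up to 2 called genes each way. The values of 1 member are not reported here, though it stays in the counts and medians. COA7, NRF1, YY1, GABPA, DLD and the other members given by name were chosen after their values were seen. Alternatives covered total-count, upper-quartile and DESeq2 1.42.0 scaling, another filter on level, pseudocount and size threshold, the authors' deposited fold, removal of a length trend, and summed CPM. Leaving out members with overlapping exons was an alternative chosen after seeing the data. Scripts ran under Python 3.11.15 (numpy 2.4.6, pandas 2.3.3, scipy 1.17.1, statsmodels 0.14.6).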

Additional observations from a re-analysis of the deposited data

How the results depend on the processing

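No paired analysis was possible because each group holds 1 library. By the 1.5-fold rule the counts of members called (1 higher, 1 lower) became 0 and 2 under scaling by total counts, where COX7B2 was lost and NDUFA4L2 kept its call, and 0 and 0 with a filter of 5 CPM, which removes both. With the length trend removed 2 were higher (COX6B2 joined). Past a log2 ratio of 0.32 in size 4 were higher and 6 lower, and at 2-fold 0 were higher and NDUFA4L2 was still lower. Without members whose exons overlap another gene, 0 were lower, since NDUFA4L2 is one of them. Scaling by total counts gave medians of -0.0309 for all measured members, -0.0305 for all subunits, -0.0557 for complex II, -0.0177 for complex III with cytochrome c, -0.0782 for complex IV and 0.0082 for complex V. All measured genes had a median of -0.0748 under that scaling. As the ratio of summed CPM, complex II gave -0.0634 and complex V -0.0022. The difference between mitochondrially encoded and nuclear subunits was 0.2851 with the length trend removed. Medians of complex I, of the assembly factors and of the difference between subunits and assembly factors moved by less than the counting interval of their middle members under every alternative run. NDUFA4L2 ranged from -1.29 to -1.12 over 6 alternatives. Counting error limits the genes under 100 counts (NDUFA3, COX6B2, COX7B2, COX8C, ATP5MGL, NDUFA6-DT, NDUFB2-AS1 and NDUFA4L2); for the others the missing replicates, not depth, limit what can be said.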

Other observations

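Coenzyme Q, the lipid that carries electrons from complexes I and II to complex III, is made by a set of mitochondrial enzymes, and 13 of 13 genes of that list were measured. Past a log2 ratio of 0.32 in size 6 were lower and 1 was higher, beside 20.5% and 19.2% of all measured genes, with a median log2 ratio of -0.20 against 0.01 for all measured genes. COQ8B, an atypical kinase of the pathway, had 31.5 CPM in DMSO and 19.5 CPM with cabozantinib (-0.69, -0.86 to -0.53). PDSS1, which starts the tail of the molecule, had 18.7 and 28.6 CPM (0.62, 0.45 to 0.79). Of the 13 genes only COQ8B and PDSS1 were past 1.5-fold, 1 lower and 1 higher, beside 12.3% and 8.15% of all measured genes. Of the other enzymes that feed electrons to coenzyme Q, ETFDH, which takes them from fatty acid oxidation, had 40.3 and 24.8 CPM (-0.70, -0.84 to -0.55), and SQOR, which oxidises sulfide, had 34 and 57 counts (0.79, 0.16 to 1.46). Of 13 TCA cycle genes 0 passed 1.5-fold, beside 8.15% higher and 12.3% lower of all measured genes. The median of the TCA cycle genes was -0.07. DLD, a subunit shared by several dehydrogenases, was lowest at 435 and 328 CPM (-0.41, -0.45 to -0.37).

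Of 11 transcriptional regulators of respiratory genes 10 were measured, and PPARGC1A, which encodes a coactivator of mitochondrial genes, was at 0 in each library, a floor of 3 counts. PPRC1, a relative of that coactivator, had 55.3 and 101 CPM (0.86, 0.77 to 0.96). It was the single one of the 10 past 1.5-fold, beside 8.15% higher and 12.3% lower of all measured genes. NRF1 had 24.6 and 31.2 CPM (0.34), YY1 85.3 and 107 CPM (0.32) and GABPA 58.4 and 54.5 CPM (-0.10), while GABPA exons overlap those of ATP5PF on the opposite strand by 561 bases.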
